A study of Mus musculus with 20 samples.

Results

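A set of 7 genes of the Krüppel-like factor (KLF) family were followed in endothelial cells of mouse skeletal muscle: Klf2, Klf4, Klf3, Klf10, Klf6, Klf13 and Klf7. They were chosen as a list by name, with earlier results of these data known, as were the other gene lists. Counts from these lists beside shares of all genes are therefore descriptions. The members make up 7 of the 42374 genes to which the deposited transcript tables could be summed. All 7 passed the filter on low counts. The cells were CD31+CD45- sorted cells of 2 muscles, the soleus, called oxidative, and the extensor digitorum longus (EDL), called glycolytic. Each muscle was taken from C57BL/6N mice with an endothelial deletion of Atf4 (EC-specific Atf4-/-, called Atf4 ECKO) and from controls (WT), which gave 4 groups of 5 libraries: soleus Atf4 ECKO, soleus WT, EDL Atf4 ECKO and EDL WT. ATF4 is a basic leucine zipper protein made when cells are short of amino acids or under other stress, and it switches on amino acid synthesis and transport. Recombination was induced at an age of 8 to 10 weeks by tamoxifen, 1 mg a day for 5 days, with at least 7 days before use. The controls were littermates without Cre that had the same tamoxifen, so the drug is shared by all groups and the Cre transgene is not. The labels name neither the Cre driver nor the number of animals behind a library, so a p-value here speaks to the scatter among libraries of a group, part or all of which may be technical. In such bulk samples, fewer cells of a type and less RNA per cell cannot be told apart.

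KLF proteins carry a row of zinc fingers at the C terminus and bind GC-rich and CACCC sequences, where some members activate and others repress. Klf2 and Klf4 are induced in endothelium by laminar flow, through a MEK5, ERK5 and MEF2 cascade, and they raise anticoagulant and vasodilator genes and lower inflammatory ones. The other members have more general roles, among them repression through the corepressors CtBP (Klf3) and Sin3A (Klf10).

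The members lie on 7 chromosomes of the mouse genome (GRCm38, GENCODE M21). Klf2 (ENSMUSG00000055148.7) is at chr8:72319033-72321656, Klf4 (ENSMUSG00000003032.8) at chr4:55527143-55532466, Klf3 (ENSMUSG00000029178.14) at chr5:64803388-64832901 and Klf10 (ENSMUSG00000037465.10) at chr15:38291463-38300706. Klf6 (ENSMUSG00000000078.7) is at chr13:5861482-5870394, Klf13 (ENSMUSG00000052040.10) at chr7:63886351-63938915 and Klf7 (ENSMUSG00000025959.13) at chr1:64029447-64122282. Genes that overlap Klf3, Klf7 or Klf13 averaged at most 23.5 estimated counts where they had any, against 1817 or more for these members.

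Promoter windows were present in the RefSeq table (GRCm38.p6) for 6 of the 7 members, all but Klf10, and the stretches upstream of the annotated starts are shown for Klf2 and Klf4, the flow-responsive pair, and for Klf6, which rose in the EDL where that pair fell. Capitals mark matches to MEF2 and to TGACG, the core of the cyclic AMP response element, on either strand. Klf2 is at chr8:72318812-72319032 on the plus strand, Klf4 at chr4:55532476-55532725 on the minus strand and Klf6 at chr13:5861239-5861481 on the plus strand.
Klf2 promoter: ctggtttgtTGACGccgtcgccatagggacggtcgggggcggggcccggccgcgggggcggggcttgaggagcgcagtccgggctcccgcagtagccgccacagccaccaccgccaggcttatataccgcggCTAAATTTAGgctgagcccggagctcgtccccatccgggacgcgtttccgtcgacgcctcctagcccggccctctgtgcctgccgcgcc
Klf4 promoter: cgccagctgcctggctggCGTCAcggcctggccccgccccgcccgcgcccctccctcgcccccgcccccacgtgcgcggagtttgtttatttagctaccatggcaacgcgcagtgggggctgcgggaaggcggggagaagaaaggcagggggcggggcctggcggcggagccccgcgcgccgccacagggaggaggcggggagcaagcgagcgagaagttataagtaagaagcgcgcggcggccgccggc
Klf6 promoter: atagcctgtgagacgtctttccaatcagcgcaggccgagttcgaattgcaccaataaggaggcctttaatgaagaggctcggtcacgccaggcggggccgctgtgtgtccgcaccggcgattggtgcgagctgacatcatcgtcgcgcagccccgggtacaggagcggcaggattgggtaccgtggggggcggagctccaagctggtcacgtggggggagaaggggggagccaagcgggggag

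The MEF2 match CTAAATTTAG in Klf2 lies at positions -118 to -109 from the RefSeq start. MEF2 matches occurred in 3.19% of 32851 RefSeq promoter windows of the same 300 bases and in 1 of the 6 members. TGACG occurred in 4 of the 6 (Klf2, Klf3, Klf4 and Klf13), against 20.8% of all windows. No member held the full element TGACGTCA (1.79% of windows), the AP-1 site TGANTCA (7.81%), the CArG box of serum response factor (1.63%) or TGATGNAA, the composite site that ATF4 binds with C/EBP partners (3.97%); these letters are absent from these windows, which says nothing of binding. All 6 held the GC box GGGCGG, which was in 35.7% of windows, and 4 held CCACCC, which was in 31.5%. Their GC content was 58.3% to 76.7%, against a median of 52.7% over all windows.

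Library totals ranged from 8013223 to 21720127 estimated counts. Atf4, the deleted gene, averaged 8.29 ± 0.35 CPM (counts scaled to library size) in soleus Atf4 ECKO libraries and 554.2 ± 21.02 CPM in soleus WT libraries, and 7.38 ± 1.00 CPM in EDL Atf4 ECKO libraries and 262.0 ± 13.5 CPM in EDL WT libraries (SD, n = 5 each). Transcripts of 12 endothelial markers were abundant in all groups, summing to between 9958 and 11974 CPM. Y-linked transcripts, as a share of the soleus WT mean, stood at 56.6%, 57.5% and 28.2% in soleus Atf4 ECKO libraries 1 to 3 and at 0.817% and 0.961% in libraries 4 and 5. In EDL Atf4 ECKO libraries they were at most 1.35%, whereas all EDL WT libraries carried them. Sex and genotype thus cannot be told apart in the EDL. In soleus WT libraries Y-linked transcripts were at 93.5% to 104%, above every soleus Atf4 ECKO library. So the soleus genotype comparison, the Atf4 ECKO muscle comparison and the interaction were not matched for Y-linked RNA either. Xist, an RNA of female cells, was 17.97 to 81.5 CPM in soleus Atf4 ECKO and at most 0.27 CPM in soleus WT libraries. It was 59.3 to 66.4 CPM in EDL Atf4 ECKO and at most 0.08 CPM in EDL WT libraries. Soleus Atf4 ECKO libraries 1 to 3 thus carried both Xist and Y-linked RNA. Splitting that group by Y-linked RNA does not match the genotypes for sex. The libraries of a group differed from one another by more than counting error in all 40 pairs, with a chi-square per gene of 2.67 or more, so none was treated as a copy.

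Per unit of transcript length, Klf6 and Klf2 were the most abundant members. Averaged over the 20 libraries, Klf6 stood at 594.5 TPM (transcript abundance scaled by length and library) and Klf2 at 477.9 TPM, ranks 227 and 283 among all genes. Klf13 followed at 110 TPM, then Klf4 at 69.9, Klf3 at 68.4, Klf7 at 62.6 and Klf10 at 42.4 TPM. By these gene sums, Klf6 led Klf2 in 3 groups and Klf2 led Klf6 in EDL WT libraries. The Klf6 sum includes a retained-intron transcript, and its protein-coding transcript alone averaged below Klf2 in all 4 groups. The TPM levels of the leading pair were 673.2 ± 89.5 (Klf6) and 475.2 ± 38.7 (Klf2) in soleus Atf4 ECKO libraries, and 499.1 ± 32.4 (Klf6) and 430.8 ± 101.4 (Klf2) in soleus WT libraries (SD, n = 5 each). In EDL Atf4 ECKO libraries Klf6 stood at 762.3 ± 21.8 TPM and Klf2 at 391.8 ± 46.6 TPM, and in EDL WT libraries Klf6 stood at 443.3 ± 27.96 and Klf2 at 613.6 ± 83.1 TPM. The library ranges of the pair overlapped in soleus WT alone. Within a library, the ratio of Klf6 to Klf2 TPM was 1.67 to 2.25 in EDL Atf4 ECKO, against 0.615 to 0.855 in EDL WT. In the soleus it was 1.31 to 1.57 in Atf4 ECKO libraries and 0.939 to 1.51 in WT libraries, which overlap. Klf13 was the third member in all 4 groups and stood apart from its neighbours. Klf4 and Klf3 were not separable in any group, and Klf7 was separable from its neighbour Klf3 in EDL WT alone.

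**Figure D1:**
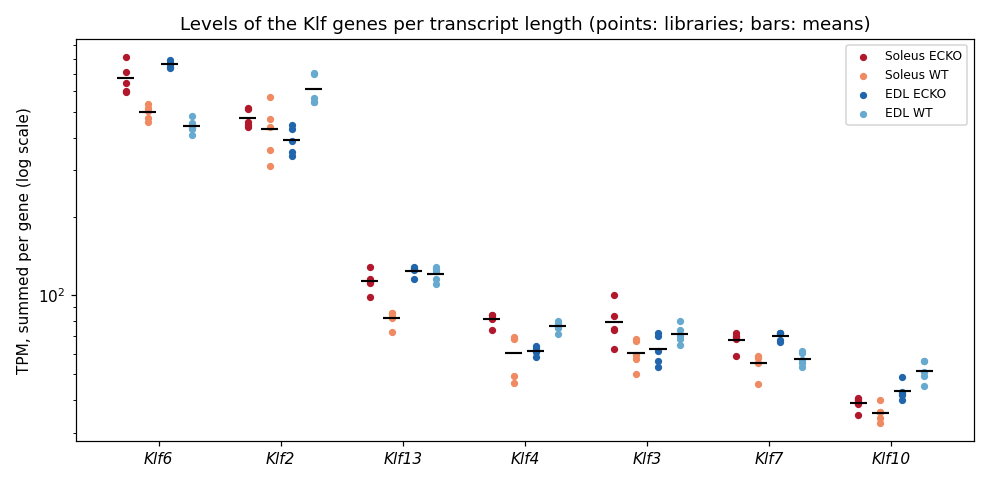
TPM summed per gene (log axis) for the 7 members in each library, coloured by group, with bars at group means. Klf6 and Klf2 lie above the others in every library, and their order in EDL WT is opposite to that in EDL Atf4 ECKO. The Klf6 sum includes its retained-intron transcript.

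In the EDL, the members moved in both directions between genotypes. 4 of the 7 members fell in Atf4 ECKO libraries, beside 15.1% of the 13971 genes tested, and 2 rose, beside 13.9%; 29.0% of all genes were called in either direction (edgeR quasi-likelihood test, adjusted p below 0.05). Klf2, Klf4, Klf3 and Klf10 fell and Klf6 and Klf13 rose. The median log2 fold change was -0.27 over the members and 0.00 over all genes. For all 7 members the libraries of the genotypes did not overlap, a pattern seen in 22.4% of all genes. The summed endothelial markers were also lower, at 9958 to 10097 CPM in EDL Atf4 ECKO libraries against 11580 to 11974 CPM in EDL WT libraries, with 8 of 12 markers fallen. The mural sum of 10 pericyte and smooth muscle markers was 2005 to 2069 CPM in EDL Atf4 ECKO libraries against 865 to 877 CPM in EDL WT libraries. Of these 10, the contractile genes Acta2 (1024 CPM in Atf4 ECKO against 188.6 CPM in WT libraries) and Tagln (518.8 against 130.1 CPM) rose, the pericyte gene Pdgfrb fell (24.9 against 34.7 CPM), and the other 7 were not called. Fibre markers summed to 166 to 170 CPM in EDL Atf4 ECKO against 69.3 to 76.7 CPM in EDL WT libraries, fibroblast markers to 123 to 128 against 52.1 to 60.3 CPM, and immune markers to 15.2 to 17.5 against 23.0 to 28.6 CPM. The part of these transcripts in the results was not tested.

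Klf2 had the largest fall of the 7. It stood at 383.3, 393.4, 427.5, 490.7 and 481.3 CPM in EDL Atf4 ECKO libraries, against 647.3, 838.1, 660.2, 820.9 and 683.8 CPM in EDL WT libraries. The highest Atf4 ECKO library lay below the lowest WT library. Its level was 0.596 times that of WT, a log2 fold change of -0.75 ± 0.12 (SE, n = 5 each; edgeR adjusted p = 2.3e-05). Per 1000 CPM of the 12 endothelial markers, Klf2 was 38.5 to 48.6 CPM in Atf4 ECKO libraries and 54.1 to 71.8 CPM in WT libraries, which still did not overlap.

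Klf4, which shares the flow response and many targets with Klf2, stood at 117.2, 124.4, 119.1, 124.2 and 123.1 CPM in EDL Atf4 ECKO libraries, against 156.8, 169.3, 167.1, 159.2 and 153.8 CPM in EDL WT libraries. The 5 Atf4 ECKO values were tightly grouped and all lay below the WT values. The log2 fold change was -0.41 ± 0.09 (SE; edgeR adjusted p = 0.0016), a level 0.754 times that of WT. Relative to the endothelial markers the ranges were 11.8 to 12.4 in Atf4 ECKO and 13.1 to 14.5 in WT libraries.

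Klf10, a transforming growth factor beta-inducible repressor, had 89.4, 88.3, 80.1, 79.3 and 83.7 CPM in EDL Atf4 ECKO libraries, against 98.8, 109.5, 105.2, 119.7 and 129.0 CPM in EDL WT libraries. All WT libraries were above all Atf4 ECKO libraries, with the widest spread in WT. Its log2 fold change was -0.42 ± 0.06 (SE; edgeR adjusted p = 8.4e-06). Klf3, a repressor that recruits CtBP, had 103.9, 113.1, 119.7, 111.3 and 110.8 CPM in EDL Atf4 ECKO libraries, against 134.1, 130.9, 120.3, 150.2 and 136.2 CPM in EDL WT libraries. The ranges came within 1 CPM of each other without overlap, and the log2 fold change was -0.27 ± 0.08 (SE; edgeR adjusted p = 0.011). Relative to the endothelial markers the genotypes overlapped for both genes: Klf3 averaged 11.1 in Atf4 ECKO and 11.4 in WT libraries, and Klf10 averaged 8.39 in Atf4 ECKO and 9.58 in WT libraries.

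Klf6, an injury-induced factor that in human endothelial cells activates receptors of the transforming growth factor beta pathway, rose. It stood at 1226, 1240, 1216, 1197 and 1223 CPM in EDL Atf4 ECKO libraries, against 737.5, 752.8, 749.5, 741.7 and 792.8 CPM in EDL WT libraries. The genotypes were far apart beside their spread, with a coefficient of variation of 1.27% in Atf4 ECKO and 2.92% in WT libraries. The log2 fold change was 0.69 ± 0.05 (SE; edgeR adjusted p = 6.9e-11), 1.62 times the WT level.

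Klf13, known in human T cells as an activator of the chemokine gene CCL5, had 361.4, 407.6, 398.3, 398.7 and 375.7 CPM in EDL Atf4 ECKO libraries, against 323.8, 327.2, 317.6, 318.4 and 308.5 CPM in EDL WT libraries. All Atf4 ECKO libraries were higher, with a log2 fold change of 0.28 ± 0.05 (SE; edgeR adjusted p = 3.0e-05). The call did not hold once the length of the transcripts was allowed for: with an offset for effective length the log2 fold change was -0.08 (adjusted p = 0.35). Klf7, best known for axon growth in neurons, ranged from 141.1 to 152.0 CPM in EDL Atf4 ECKO libraries and from 131.8 to 140.6 CPM in EDL WT libraries. Its ranges were separate by under 1 CPM and it was not called (log2 fold change 0.10 ± 0.05, SE; edgeR adjusted p = 0.17), though it was called in a fit of the EDL groups alone (adjusted p = 0.033).

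**Figure D2:**
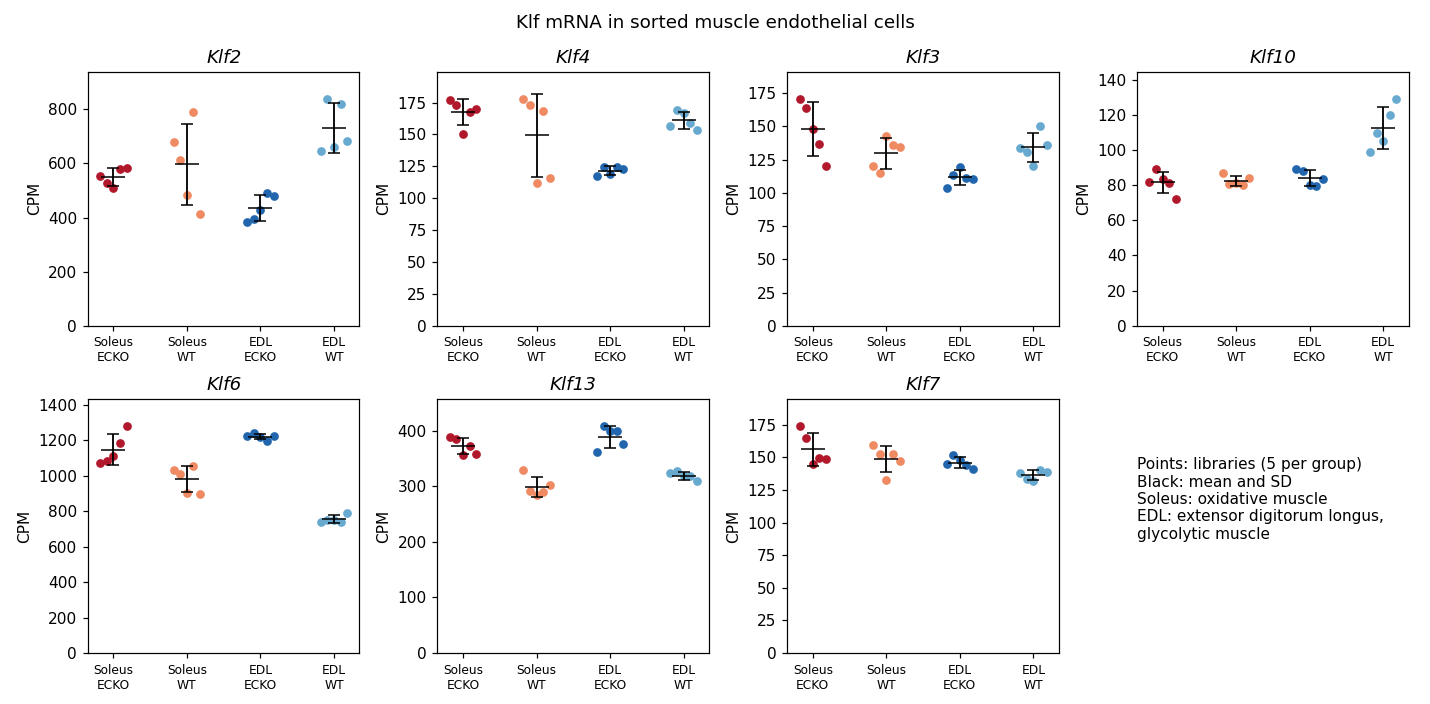
CPM of each member by group (points are libraries, 5 per group; black marks are mean and SD). The EDL genotypes separate for all 7 members, Klf2, Klf4, Klf3 and Klf10 lower and Klf6, Klf13 and Klf7 higher in Atf4 ECKO, while Klf2 and Klf4 are spread widely in soleus WT.

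In the soleus, Klf6 and Klf13 rose in Atf4 ECKO libraries, and the other 5 members were not called. 2 of 7 rose, beside 14.6% of genes tested, while 17.4% of genes fell and 32.0% of genes were called in either direction. The members' median log2 fold change was 0.17, against 0.02 over all genes. The libraries of the genotypes did not overlap for 2 members, Klf6 and Klf13, a pattern seen in 20.2% of all genes. Immune transcripts summed to 44.1 to 99.7 CPM in soleus Atf4 ECKO libraries and to 371.0 to 475.3 CPM in soleus WT libraries. Mural markers summed to 792.2 to 1220 against 594.5 to 699.9 CPM, with 6 of 10 risen. Endothelial markers summed to 11010 to 11323 against 10100 to 10751 CPM, with 4 of 12 risen and 2 fallen. Of 15 fibre markers 8 rose, though their sums overlapped between genotypes, as did the fibroblast sums. The part of all these transcripts in the Klf differences was not tested.

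Klf6 stood at 1071, 1081, 1114, 1186 and 1279 CPM in soleus Atf4 ECKO libraries, against 1031, 1009, 904.7, 1055 and 897.3 CPM in soleus WT libraries. Relative to the endothelial markers the ranges overlapped, at 95.8 to 114 in Atf4 ECKO and 85.8 to 98.1 in WT libraries. In CPM, the highest WT library lay just below the lowest Atf4 ECKO library. The log2 fold change was 0.23 ± 0.05 (SE; edgeR adjusted p = 0.0011). It was 0.16 (adjusted p = 0.011) with the 3 Atf4 ECKO libraries that carried Y-linked RNA and 0.33 (adjusted p = 5.2e-05) with the other 2. Libraries 1 to 5 of soleus Atf4 ECKO also differed in the fibroblast sum (63.0, 64.1, 221.9, 429.6 and 417.9 CPM), in the fibre sum (217.9 to 243.1 CPM in libraries 1 to 3, 290.5 and 292.0 CPM in 4 and 5) and in the immediate early sum (4113 to 4587 CPM in 1 to 3, 5331 and 5122 CPM in 4 and 5), and which of these goes with the Klf6 values was not tested.

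Klf13 stood at 388.7, 384.2, 356.9, 372.0 and 357.1 CPM in soleus Atf4 ECKO libraries, against 329.0, 290.7, 283.6, 289.2 and 301.4 CPM in soleus WT libraries. The groups did not overlap, nor did they relative to the endothelial markers (31.9 to 35.3 in Atf4 ECKO and 26.9 to 30.6 in WT libraries). The log2 fold change was 0.32 ± 0.05 (SE; edgeR adjusted p = 5.4e-06), with 0.34 and 0.29 for the Atf4 ECKO libraries with and without Y-linked RNA. Unlike the EDL value, it remained called with the length offset (0.22, adjusted p = 0.0054).

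Klf2 stood at 555.4, 528.0, 508.2, 579.1 and 584.8 CPM in soleus Atf4 ECKO libraries, against 679.1, 612.0, 483.6, 791.8 and 414.9 CPM in soleus WT libraries. The Atf4 ECKO values lay inside the WT range, and the log2 fold change was -0.11 ± 0.12 (SE; edgeR adjusted p = 0.51). Its mean TPM, which lacks the TMM scaling of CPM, was on the other side, higher in Atf4 ECKO libraries, so no direction is given. Klf4 stood at 176.7, 173.3, 150.7, 167.9 and 169.7 CPM in soleus Atf4 ECKO libraries, against 177.7, 172.7, 112.0, 168.4 and 115.7 CPM in soleus WT libraries, and was not called (0.17 ± 0.09, SE; edgeR adjusted p = 0.17).

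Soleus WT libraries 3 and 5 were the lowest of their group for Klf2, Klf4 and Klf6 alike. The same libraries had a higher fibre marker sum, 219.0 and 224.4 CPM against 111.7 to 147.2 CPM in the other 3. Their fibroblast sum was also higher, 309.2 and 332.2 against 140.9 to 161.5 CPM, and their immediate early sum lower, 7077 and 7199 against 8620 to 9213 CPM. What part these play in the Klf2 and Klf4 values was not tested.

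Klf3 stood at 170.6, 164.2, 148.1, 136.6 and 120.2 CPM in soleus Atf4 ECKO libraries, against 120.3, 115.2, 142.7, 136.2 and 134.4 CPM in soleus WT libraries. The ranges overlapped and it was not called (log2 fold change 0.18 ± 0.08, SE; edgeR adjusted p = 0.069). The 3 Atf4 ECKO libraries with Y-linked RNA were the 3 highest for Klf3, and with these alone the log2 fold change was 0.32 (adjusted p = 5.4e-04), against -0.02 (adjusted p = 0.87) with the other 2. These are also the libraries with the lower fibroblast, fibre and immediate early sums given for Klf6. Klf7 was 144.7 to 173.8 CPM in soleus Atf4 ECKO and 132.6 to 159.1 CPM in soleus WT libraries, and Klf10 was 72.4 to 89.1 CPM in soleus Atf4 ECKO and 80.2 to 86.8 CPM in soleus WT libraries. Both genes overlapped between genotypes, with log2 fold changes of 0.07 (edgeR adjusted p = 0.34) and -0.02 (edgeR adjusted p = 0.83).

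The genotype effects differed between muscles for 5 of the 7 members by the interaction test, in which 22.6% of all genes were called. It was positive, meaning a more positive genotype effect in the soleus, for Klf2, Klf3, Klf4 and Klf10 (10.1% of genes) and negative for Klf6 (12.5% of genes). The difference in log2 effects was 0.63 ± 0.17 for Klf2 (edgeR adjusted p = 0.0064) and 0.58 ± 0.13 for Klf4 (edgeR adjusted p = 0.0018), both SE. It was 0.45 ± 0.11 for Klf3 (edgeR adjusted p = 0.0032), 0.40 ± 0.09 for Klf10 (edgeR adjusted p = 0.0014) and -0.47 ± 0.07 for Klf6 (edgeR adjusted p = 2.5e-05). Klf13 and Klf7 were not called (0.03 ± 0.07 and -0.03 ± 0.07, SE; edgeR adjusted p = 0.79 and 0.83). With the soleus Atf4 ECKO libraries without Y-linked RNA alone, the Klf3 difference was 0.25 (adjusted p = 0.073) and no longer called. With the length offset, Klf10 was no longer called (0.26, edgeR adjusted p = 0.099) and Klf13 was called (0.30, edgeR adjusted p = 0.010). Of the 12 endothelial markers, 6 had a positive interaction and 0 a negative one, with a median of 0.22. Relative to these markers, Klf3 and Klf10 overlapped between the EDL genotypes, while Klf2, Klf4 and Klf6 stayed separate. The interaction of the members relative to these markers was not tested.

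**Figure D3:**
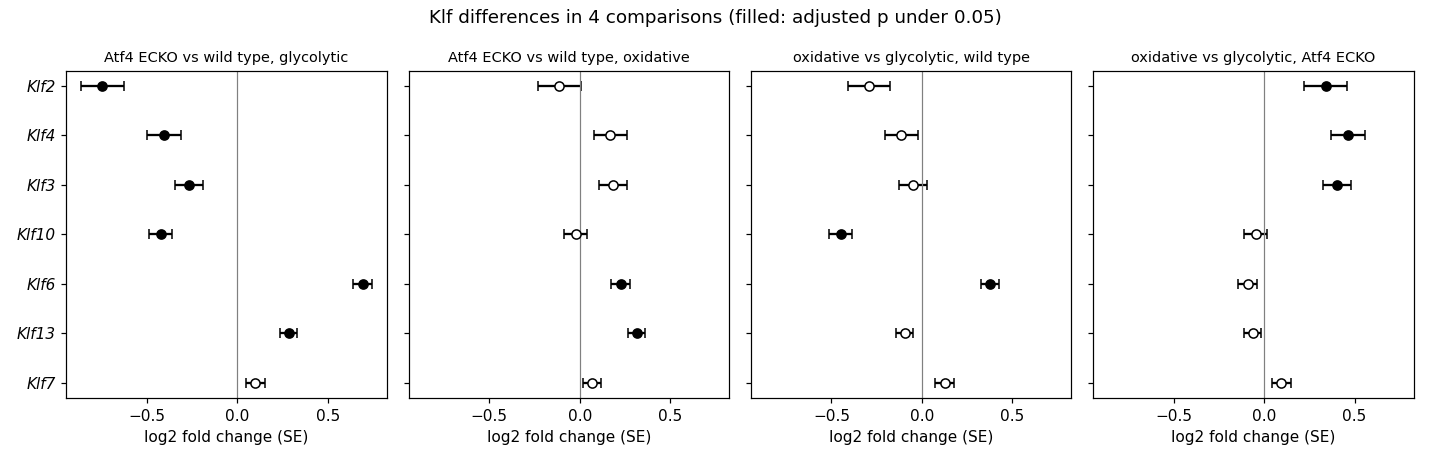
log2 fold change of each member with its SE in the 4 comparisons, from 1 fit of 20 libraries; filled points have an edgeR adjusted p below 0.05. The EDL genotype comparison has the most filled points, 6 of 7.

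Between muscles in WT mice, 2 of 7 members were called, beside 32.4% of genes tested, and the ranges did not overlap for the same 2, a pattern seen in 23.1% of all genes. Klf6 was higher in the soleus, at 897.3 to 1055 CPM against 737.5 to 792.8 CPM in the EDL (log2 fold change 0.38 ± 0.05, SE; edgeR adjusted p = 2.2e-06). Each direction held 1 member, beside 16.4% of genes higher and 15.9% lower. Klf10 was lower in the soleus, at 80.2 to 86.8 CPM against 98.8 to 129.0 CPM (-0.45 ± 0.06, SE; edgeR adjusted p = 2.3e-06). Klf2 was 414.9 to 791.8 CPM in soleus WT and 647.3 to 838.1 CPM in EDL WT libraries and was not called (-0.29 ± 0.12, SE; edgeR adjusted p = 0.060). The median log2 difference was -0.09 over the members and 0.00 over all genes. Immune markers summed to 371.0 to 475.3 CPM in soleus WT against 23.0 to 28.6 CPM in EDL WT libraries. Fibroblast sums were 140.9 to 332.2 against 52.1 to 60.3 CPM, and fibre sums 111.7 to 224.4 against 69.3 to 76.7 CPM. Mural sums were 594.5 to 699.9 against 865 to 877 CPM. Of 21 immediate early genes, 18 were higher in the soleus. The part of these transcripts in the Klf differences between WT muscles was not tested.

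Between muscles in Atf4 ECKO mice, the set of called members was another. 3 of 7 were called, beside 18.4% of genes, all higher in the soleus (8.31% of genes), and the same 3 had ranges that did not overlap, a pattern seen in 13.2% of all genes. Klf4 was 150.7 to 176.7 CPM in soleus Atf4 ECKO and 117.2 to 124.4 CPM in EDL Atf4 ECKO libraries (0.46 ± 0.09, SE; edgeR adjusted p = 7.5e-04). Klf3 was 120.2 to 170.6 CPM in soleus Atf4 ECKO and 103.9 to 119.7 CPM in EDL Atf4 ECKO libraries, and differed by 0.40 ± 0.08 (SE; edgeR adjusted p = 4.9e-04). Klf2 was 508.2 to 584.8 CPM in soleus Atf4 ECKO and 383.3 to 490.7 CPM in EDL Atf4 ECKO libraries, and differed by 0.34 ± 0.12 (SE; edgeR adjusted p = 0.046), a call at the threshold that was lost in 8 of the 10 fits that left out 1 library and with DESeq2 (adjusted p = 0.067). Relative to the endothelial markers, Klf2 overlapped between the muscles (45.6 to 52.2 in soleus and 38.5 to 48.6 in EDL Atf4 ECKO libraries). So did Klf3 (10.7 to 15.5 in soleus and 10.4 to 11.9 in EDL Atf4 ECKO libraries). Klf4 stayed separate (13.5 to 16.1 in soleus and 11.8 to 12.4 in EDL Atf4 ECKO libraries). Immune markers summed to 44.1 to 99.7 CPM in soleus Atf4 ECKO against 15.2 to 17.5 CPM in EDL Atf4 ECKO libraries. Fibre sums were 217.9 to 292.0 against 166 to 170 CPM, and mural sums 792.2 to 1220 against 2005 to 2069 CPM. The part of these transcripts in the Klf differences between Atf4 ECKO muscles was not tested. The muscle comparisons and the genotype comparisons use the same 20 libraries and so are not independent of each other.

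Klf2 had the widest spread between libraries of the 7 members in 3 groups, with a coefficient of variation of 25.3% in soleus WT, 11.3% in EDL Atf4 ECKO and 12.6% in EDL WT libraries. In soleus Atf4 ECKO libraries it was 5.96% for Klf2, and Klf3 was the widest at 13.8%. Klf4 was likewise wide in soleus WT, 21.8%, and at 6.01%, 2.66% and 4.14% in soleus Atf4 ECKO, EDL Atf4 ECKO and EDL WT libraries. The Klf2 transcript is 61.6% GC, above that of 97.9% of 13964 genes. Whether GC content bears on the spread was not tested.

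By annotated transcript, Klf2 has a single one. Klf6 was split between a protein-coding transcript of 4225 bases and a retained-intron transcript of 799 bases. The coding one held 47.2% of the TPM of Klf6 in soleus Atf4 ECKO, 44.5% in soleus WT, 46.3% in EDL Atf4 ECKO and 45.1% in EDL WT libraries. The coding transcript stood at 353.0 ± 3.5 TPM in EDL Atf4 ECKO and 199.0 ± 3.6 TPM in EDL WT libraries (SD, n = 5 each), and the retained-intron transcript at 344.8 ± 10.0 TPM in EDL Atf4 ECKO and 203.4 ± 20.6 TPM in EDL WT libraries.

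Klf13 differed in its transcripts between the EDL genotypes. The long transcript, of 6396 bases, was 75.5, 88.6, 87.0, 86.9 and 80.4 TPM in EDL Atf4 ECKO libraries, against 63.7, 63.7, 61.2, 63.8 and 58.9 TPM in EDL WT libraries. It held 60.6% to 69.8% of the TPM of Klf13 in EDL Atf4 ECKO and 45.8% to 57.9% in EDL WT libraries. The short transcripts were lower in Atf4 ECKO libraries on average: the one of 487 bases was 21.9 ± 4.2 TPM in EDL Atf4 ECKO against 34.7 ± 8.1 TPM in EDL WT libraries, and the one of 599 bases was 14.3 ± 3.4 TPM in EDL Atf4 ECKO against 20.97 ± 5.51 TPM in EDL WT libraries (SD, n = 5 each). Summed, Klf13 was 124.3 ± 4.8 TPM in EDL Atf4 ECKO and 120.8 ± 7.8 TPM in EDL WT libraries. In the soleus the long transcript was 75.6 ± 2.0 TPM in Atf4 ECKO and 51.4 ± 2.6 TPM in WT libraries. TPM lack the TMM scaling of CPM, so transcript levels of Klf6 and Klf13 were compared between groups on another scale than the gene tests. These transcript differences were not tested.

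**Figure D4:**
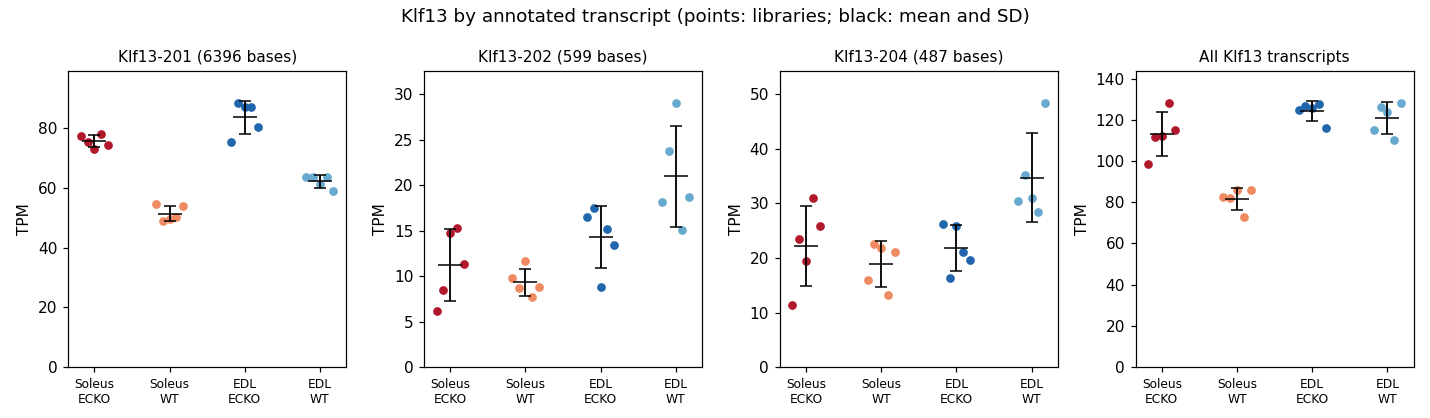
TPM of the 3 main Klf13 transcripts and of their gene sum by group (points are libraries; black marks are mean and SD). The 6396-base transcript is higher in Atf4 ECKO libraries of both muscles, while the gene sum overlaps between the EDL genotypes. These TPM are not TMM-scaled between libraries.

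Genes that Klf2 and Klf4 are known to induce were mixed in the EDL. Of 14 listed, 12 could be tested, 5 fell and 2 rose in EDL Atf4 ECKO libraries, with a median log2 fold change of -0.17, beside 15.1% of all genes fallen and 13.9% risen. Adamts4, a metalloprotease, had the largest fall, at 3.74 ± 0.88 CPM in EDL Atf4 ECKO and 13.6 ± 1.5 CPM in EDL WT libraries (SD; log2 fold change -1.86 ± 0.24, SE; edgeR adjusted p = 9.1e-07). Adamts1 (-0.63), Gja4, the gap junction protein connexin 37 (-0.49), Tek, the angiopoietin receptor (-0.35), and Nos3, endothelial nitric oxide synthase (-0.16), also fell; Ass1, an arginine synthesis enzyme (0.38), and S1pr1, a sphingosine 1-phosphate receptor (0.13), rose. In the soleus 4 of the 12 rose, beside 14.6% of all genes: S1pr1 (0.54), Timp3, a metalloprotease inhibitor (0.55), Rhob, a small GTPase (0.32), and Aqp1, a water channel (0.22). The 4 that fell, beside 17.4%, were Nppc, C-type natriuretic peptide (-1.20), Adamts1 (-0.77), Gja4 (-0.50) and Thbd, thrombomodulin (-0.34). The interaction was called for 7 of 12, beside 22.6% of all genes. It was positive for 6 of them, among them Adamts4 (2.30), Timp3 (0.56) and S1pr1 (0.41). The 12 endothelial markers, which also include Tek, had 8 fallen in EDL Atf4 ECKO libraries (median -0.29). Their interaction was positive for 6 and negative for 0, with a median of 0.22 against 0.24 for the induced list. Whether the induced list moved apart from these markers was not tested.

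Genes that Klf2 and Klf4 repress mostly rose in the EDL. Of 10 tested, 6 rose and 1 fell in EDL Atf4 ECKO libraries, with a median log2 fold change of 0.67, against 13.9% of all genes risen and a median of 0.00. Edn1, the vasoconstrictor endothelin-1, was 559.6 ± 15.0 CPM in EDL Atf4 ECKO and 208.8 ± 2.8 CPM in EDL WT libraries (SD; log2 fold change 1.42 ± 0.08, SE; edgeR adjusted p = 7.7e-13). Angpt2, an angiopoietin, rose by 1.14, and F3, tissue factor, by 2.15. F3 was at low levels, 2.04 ± 0.55 CPM in EDL Atf4 ECKO and 0.46 ± 0.19 CPM in EDL WT libraries (SD). In the soleus 4 rose (14.6% of all genes), with Edn1 at 0.79 and Angpt2 at 0.63. Another 2 fell (17.4%), Il6 by 3.28 and Sele, the leukocyte adhesion molecule E-selectin, by 1.32. Il6 was at 0.76 ± 0.34 CPM in soleus Atf4 ECKO and 7.28 ± 1.03 CPM in soleus WT libraries (SD). Sele was at 3.62 ± 0.55 CPM in soleus Atf4 ECKO and 9.21 ± 2.27 CPM in soleus WT libraries (SD). All 14 immune markers tested also fell in the soleus, with a median log2 fold change of -3.24. Their part in the Il6 and Sele values was not tested. The median log2 fold change of the 10 genes in the soleus was 0.30. These genes have many other regulators, and no test of the list as a whole was made.

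**Figure D5:**
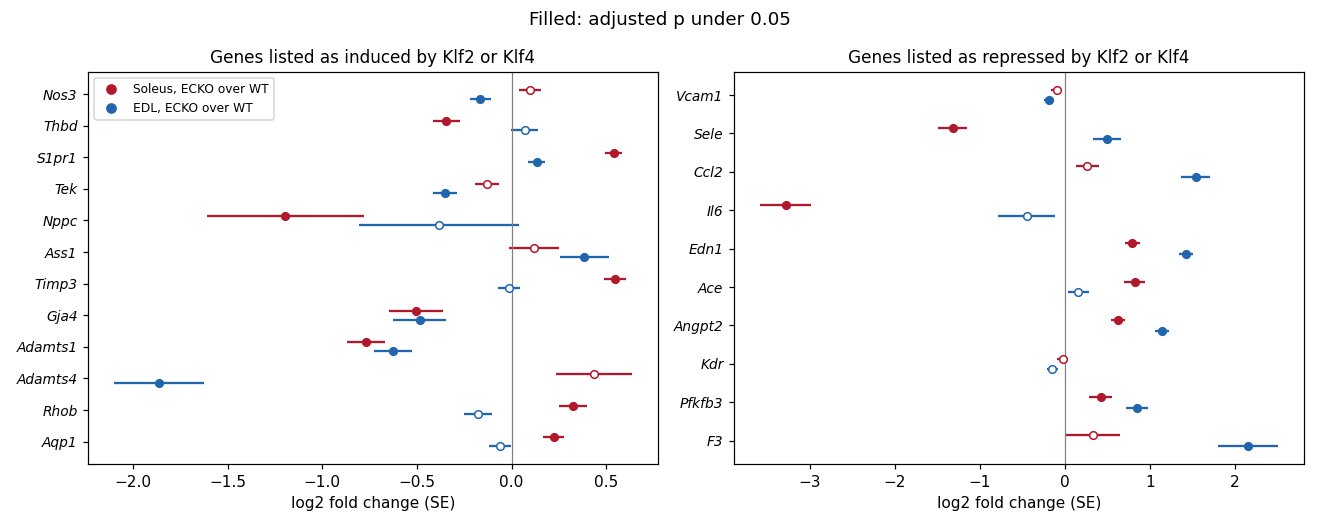
log2 fold change of Atf4 ECKO over WT with its SE for the genes listed as induced (left) and repressed (right) by Klf2 or Klf4; filled points have an edgeR adjusted p below 0.05. Edn1, Angpt2 and Pfkfb3 are positive in both muscles, and Adamts4 is negative in the EDL and not called in the soleus.

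Of 18 genes of flow sensing and the MEK5, ERK5 and MEF2 cascade, 5 fell and 3 rose in the EDL (median -0.07), beside 15.1% and 13.9% of all genes. In the soleus 3 fell and 1 rose (median -0.03), beside 17.4% and 14.6%. Mapk7, which encodes ERK5, was not called in either muscle (0.16 in the EDL and 0.07 in the soleus). Cdh5 and Pecam1, adhesion proteins that are also endothelial markers, fell in the EDL (-0.41 and -0.32), while Pecam1 rose in the soleus (0.23). The MEF2 genes differed: Mef2d rose in the EDL (0.32) and Mef2a fell in the soleus (-0.25). Among 9 cofactors and turnover genes, Ctbp1, the partner of Klf3, fell in the EDL (-0.35), as did Sin3a, a partner of Klf10 (-0.22), and Kat2b (-0.34); Fhl3, which binds Klf3, rose in both muscles (0.59 in the EDL and 0.89 in the soleus).

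Other KLF and SP genes gave 11 of 19 that could be tested. Klf9, a glucocorticoid-inducible repressor, rose in both muscles alike: 266.7 ± 14.7 CPM in soleus Atf4 ECKO against 185.7 ± 3.4 in soleus WT libraries, and 229.6 ± 5.9 in EDL Atf4 ECKO against 160.1 ± 4.1 CPM in EDL WT libraries (SD, n = 5 each). The log2 fold changes were both 0.52 ± 0.04 (SE; edgeR adjusted p = 8.1e-11 and 1.5e-10). Klf15, a regulator of amino acid and glucose metabolism, rose by 1.55 in the soleus and 1.26 in the EDL, and Klf12 fell by 1.10 in the soleus and 0.42 in the EDL. Klf16 fell by 0.32 in the soleus. Klf5, at low levels of 2.51 ± 0.92 CPM in EDL Atf4 ECKO and 0.87 ± 0.42 CPM in EDL WT libraries (SD, n = 5 each), rose by 1.55. Sp1, Sp2, Sp3 and Sp4 were not called in either muscle.

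Immediate early genes, the first to be transcribed when a cell is stimulated, include regulators that are induced alongside several KLF genes. Of 21 listed, 19 fell in soleus Atf4 ECKO libraries and 10 fell and 1 rose in EDL Atf4 ECKO libraries, with medians of -0.83 in the soleus and -0.21 in the EDL. Over all genes 17.4% fell in the soleus, and 15.1% fell and 13.9% rose in the EDL. In the soleus these falls went with Klf2 and Klf4 not called and Klf6 higher. Fos fell by 1.58 in the soleus and 0.21 in the EDL, and the EDL changes were -0.75 for Klf2 and -0.41 for Klf4. Any link between the immediate early changes and the Klf changes was not tested.

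The genes with the profile nearest to that of each member over the 20 libraries, by root mean square difference between centred log2 CPM profiles of 10331 genes, were Dhrs3 for Klf2 (0.164, beside a root mean square of 0.333 for Klf2 itself), Depp1 for Klf4 (0.0866 beside 0.236), Ppp2r5a for Klf3 (0.0939 beside 0.187) and Dbi for Klf10 (0.0881 beside 0.210). For Klf6 it was Bax (0.127 beside 0.276), for Klf13 Lrrc8a (0.0718 beside 0.165) and for Klf7 Smg6 (0.0690 beside 0.0991). Among the members themselves, Klf4 was nearest to Klf2, at 0.215, and Klf6 farthest from it, at 0.550. These are descriptions over libraries that share 4 group means.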

How the data were processed

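RNA of CD31+CD45- sorted muscle endothelial cells was sequenced as stranded mRNA libraries (single-end, 100 bases), per the labels' protocols; 20 libraries form 4 groups of 5. The authors deposited, per library and transcript, estimated counts, TPM and effective lengths. The tools kallisto and DESeq2 are named in the submitters' processing notes without versions, as is build GRCh38.p13, although the transcript identifiers are mouse. Of 129439 transcripts, 128643 matched GENCODE M21 and were summed to 42374 genes; at most 0.221% of a library's counts went unmatched.

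The deposited estimated counts were rounded and tested in edgeR 4.0.16 (R 4.3.3): TMM scaling, filterByExpr, a quasi-likelihood model with a mean for each of the 4 groups, and p-values adjusted by Benjamini-Hochberg over 13971 genes, called at 0.05. The SE is the log2 fold change divided by the root of F. Deposited TPM, which are per length and not TMM-scaled, were used for levels between genes and for single transcripts. Deposited effective lengths entered as an offset in 1 alternative. Recovery on simulated counts for soleus against EDL in WT was 95% of 200 changed genes, with 4.04% false calls. Every simulated fold was larger than most of the called Klf folds, so this recovery does not cover effects of their size. The simulation also changed far fewer genes than the 4520 called in the data. Precision is limited by 5 libraries per group and by 8013223 to 21720127 counts each. Alternatives were RLE scaling, no filter, DESeq2 1.42.0, limma-voom 3.58.1, the length offset, a replicate block, the compared groups alone, the soleus Atf4 ECKO group cut to its 3 libraries holding Y-linked RNA or to the other 2, and each library left out.

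The members and gene lists were chosen with earlier results of these data known, and 1 listed gene is not reported here. Named genes were all members, Atf4 and Xist. Also named were up to 4 called genes per list and comparison by adjusted p, or genes needed to account for a list. The nearest profiles were taken among genes of at least 4 CPM. Promoter sequences are from RefSeq.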

Additional observations from a re-analysis of the deposited data

Results flagged for a closer look

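The genotype effect differed between muscles, soleus minus EDL on the log2 scale and by the interaction term of the edgeR fit, for 5 of 7 members: Klf2 (0.633), Klf4 (0.576), Klf3 (0.449), Klf10 (0.402) and Klf6 (-0.466). Among library values, EDL WT replicate 5 stood apart from the other 4 for Klf6, at 792.8 CPM against 737.5 to 752.8 CPM, with a gap of 0.723 of the group's range. That was 1 of 28 groups of library values examined, and chance gives about 1 in 20.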

How the results depend on the processing

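Over the alternatives other than leaving out a library, the number of members called stayed within 1.5 times that reported in every comparison with 1 exception: soleus against EDL in Atf4 ECKO mice gave 1 member in place of 3 with the soleus Atf4 ECKO libraries without Y-linked RNA alone, a fit with 2 libraries in that group. Leaving out 1 library gave 2 to 4 members for soleus against EDL in WT mice, with 4 without soleus WT replicate 1 (Klf2 and Klf13 added), and 2 to 3 in Atf4 ECKO mice; the EDL genotype comparison gave 6 each time. Directions that turned were of members not called, apart from Klf13 in the EDL, which was -0.079 with the length offset. With soleus Atf4 ECKO libraries with Y-linked RNA alone, Klf10 was 0.028 between muscles and 0.0441 between genotypes, and the Klf7 interaction was 0.0411. With those without it alone, Klf6 was 0.0138 between muscles, and between genotypes Klf3 was -0.0229 and Klf7 -0.0001004. Between soleus genotypes, leaving out 1 library gave -0.0527 to 0.0207 for Klf10 and -0.225 to 0.00985 for Klf2, and the Klf7 interaction was -0.0737 to 0.00228. The cause of these turns was not tested. Klf2 between Atf4 ECKO muscles was also not called with limma-voom (adjusted p = 0.055), and between WT muscles it was called with no filter (adjusted p = 0.0028) and limma-voom (adjusted p = 0.032). Same-numbered libraries of different groups had deviations correlated between -0.06 and 0.10, so no pairing by number was seen. This cannot exclude pairing, since the scatter within groups may be technical. The replicate block gave 3, 3, 2, 6 and 5 members called for the WT and Atf4 ECKO muscle comparisons, the soleus and EDL genotype comparisons and the interaction. It added Klf2 between WT muscles (adjusted p = 0.031). Klf13 between WT muscles was called with the length offset (-0.35). Klf3 between soleus genotypes was called without soleus Atf4 ECKO replicate 5 (adjusted p = 0.0061) and without soleus WT replicate 3 (adjusted p = 0.042). Mean counts of the members were 1259 or more.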
